A study of Mus musculus with 4 samples.

Results

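The 36 genes described here carry out mitosis and chromosome segregation. They were chosen by a list of gene symbols from the machinery of cell division, a rule that uses no measured value. The list was, however, chosen with earlier results of these data known. All 36 were found among the 26026 genes measured. All 36 also had a mean of at least 1 RPKM, which 11786 genes did. RPKM is reads per kilobase of transcript, scaled to the library total, so levels can be compared between genes per length. Polyadenylated RNA came from bone marrow-derived dendritic cell (BMDC) cultures of mice, either wild type (C57/B16) or Nfkb1-/-. Nfkb1 encodes p105 and its product p50, a subunit of the transcription factor NF-kB. All cultures received Flt3L, the cytokine Flt3 ligand, under which marrow progenitors become dendritic cells, at 100 ng/mL in RPMI with serum, 2-BME and antibiotics, and cells were taken at day 3 or day 5. Each of the 4 groups (wild type and knockout at each day) was 1 library, with no other agent and no control without Flt3L. The labels give no age, sex, number of animals or strain background of the knockout, and they do not say whether animals were pooled. The series asked how RelA and p50 act together during this differentiation, and the comparisons here are knockout against wild type at each day and day 5 against day 3 in each genotype.

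A dividing cell enters mitosis when Cdk1, bound to cyclin A or B, phosphorylates many substrates, condenses its chromosomes with condensin and topoisomerase II, and attaches them to spindle microtubules at kinetochores. The spindle checkpoint holds the anaphase-promoting complex inactive until attachment is complete, after which Cdc20 directs it to destroy cyclin B and securin, and cytokinesis follows. Most of these genes are transcribed from late S phase to mitosis, which is why their transcripts are widely used as markers of cycling cells. In marrow cultures, progenitors divide while mature neutrophils and dendritic cells largely do not.

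The promoters of such genes are known for a pair of short elements, the cell cycle genes homology region (CHR, TTTGAA), which the DREAM and MuvB complexes bind, and the CCAAT box, which NF-Y binds. Promoters of 300 bases (250 before to 50 after the annotated start; RefSeq, GRCm38.p6) were at hand for 30 of the 36 genes, and those of Ccna2, Aurkb, Incenp, Tpx2, Kif20a and Smc4 were not. The stretches of 150 bases before the start of 7 genes are printed because these genes span the range of the results below. Cdk1 and Cdc20 had large knockout differences at day 3, Top2a and Ube2c the highest or near highest levels, and Kif11 a moderate difference. Mki67 had opposite differences at the days, and Ccnb1 had the largest difference and no TTTGAA, the only form counted here as CHR. Capitals mark CHR elements (TTTGAA, or TTCAAA where it lies on the opposite strand) and CCAAT boxes (CCAAT, or ATTGG on the opposite strand).
Cdk1: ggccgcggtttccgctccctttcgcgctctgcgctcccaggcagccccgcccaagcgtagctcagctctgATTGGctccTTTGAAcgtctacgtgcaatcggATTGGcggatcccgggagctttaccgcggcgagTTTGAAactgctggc
Cdc20: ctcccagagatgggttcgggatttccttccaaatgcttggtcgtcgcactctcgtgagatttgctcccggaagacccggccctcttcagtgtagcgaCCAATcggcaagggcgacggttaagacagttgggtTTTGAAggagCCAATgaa
Top2a: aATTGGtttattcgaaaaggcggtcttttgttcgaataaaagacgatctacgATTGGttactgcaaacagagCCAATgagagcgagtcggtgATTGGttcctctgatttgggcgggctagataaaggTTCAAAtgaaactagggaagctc
Ube2c: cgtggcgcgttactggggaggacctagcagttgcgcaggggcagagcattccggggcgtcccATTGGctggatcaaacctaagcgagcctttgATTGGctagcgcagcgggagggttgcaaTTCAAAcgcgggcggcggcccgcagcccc
Kif11: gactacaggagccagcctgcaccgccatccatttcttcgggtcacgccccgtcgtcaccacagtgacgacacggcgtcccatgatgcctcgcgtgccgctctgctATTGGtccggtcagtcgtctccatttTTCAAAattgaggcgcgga
Mki67: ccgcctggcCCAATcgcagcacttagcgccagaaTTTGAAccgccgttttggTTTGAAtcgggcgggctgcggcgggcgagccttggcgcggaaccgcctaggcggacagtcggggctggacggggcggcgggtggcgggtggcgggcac
Ccnb1: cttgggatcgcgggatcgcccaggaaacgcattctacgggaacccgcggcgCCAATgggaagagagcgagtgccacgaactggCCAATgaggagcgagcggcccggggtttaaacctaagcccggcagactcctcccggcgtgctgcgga
In the gene's own direction these are chr10:69352913-69353062 (minus strand) for Cdk1, chr4:118437344-118437493 (minus) for Cdc20, chr11:99024190-99024339 (minus) for Top2a, chr2:164769779-164769928 (plus) for Ube2c, chr19:37376232-37376381 (plus) for Kif11, chr7:135716380-135716529 (minus) for Mki67 and chr13:100786487-100786636 (minus) for Ccnb1.

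A CHR element on either strand was present in 23 of 30 promoters of the mitosis genes, against 20.2% of all 27025 genes with a promoter and 14.8% of the 9051 of them that passed the level filter. CCAAT was likewise present in 23 of 30, against 41.1% and 42.9%. Both elements stood together in 20 of 30, against 8.97% and 7.21%. The CHR element lay close to the start: in 20 of 30 promoters one began within 50 bases of it, against 5.72% of all genes. Cdk1 has CHR elements at -71 and -15 and Cdc20 at -18, while both copies of Mki67 lie farther off, at -116 and -98. Of the 118 other mitosis genes taken up below, 99 had a promoter, with CHR in 42 (42.4%) and CCAAT in 58 (58.6%). Among 45 DNA replication genes, which peak earlier in the cell cycle, the 36 with a promoter had CHR in 5 and CCAAT in 21 (58.3%). The E2F motifs TTCGCGC or TTGGCGC were in 13 of those 36 (36.1%) and in 10 of the 99 other mitosis genes. The mitosis genes themselves had those E2F motifs in 5 of 30, against 4.47% of all genes and 8.22% of those that passed the filter. TTCGAA, a CHR variant, was in 3 (1.80% and 2.52%) and the TATA box TATAAA in 1, Kif2c (15.7% and 8.37%). The kappaB consensus was in 3 (Birc5, Kif23 and Ncapd2), against 5.14% of all genes. All motifs were searched on both strands, and none of them contains another, though ATTGG and TTGGCGC can share bases. A match is a run of letters, not a bound site. The median knockout difference of the 23 with CHR was 0.38 at day 3 and 0.48 at day 5. That of the 7 without TTTGAA was 0.37 and 0.45. Between the days, the wild-type median was 0.37 with CHR and 0.50 without, and the knockout median 0.43 with and 0.46 without.

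**Figure D1:**
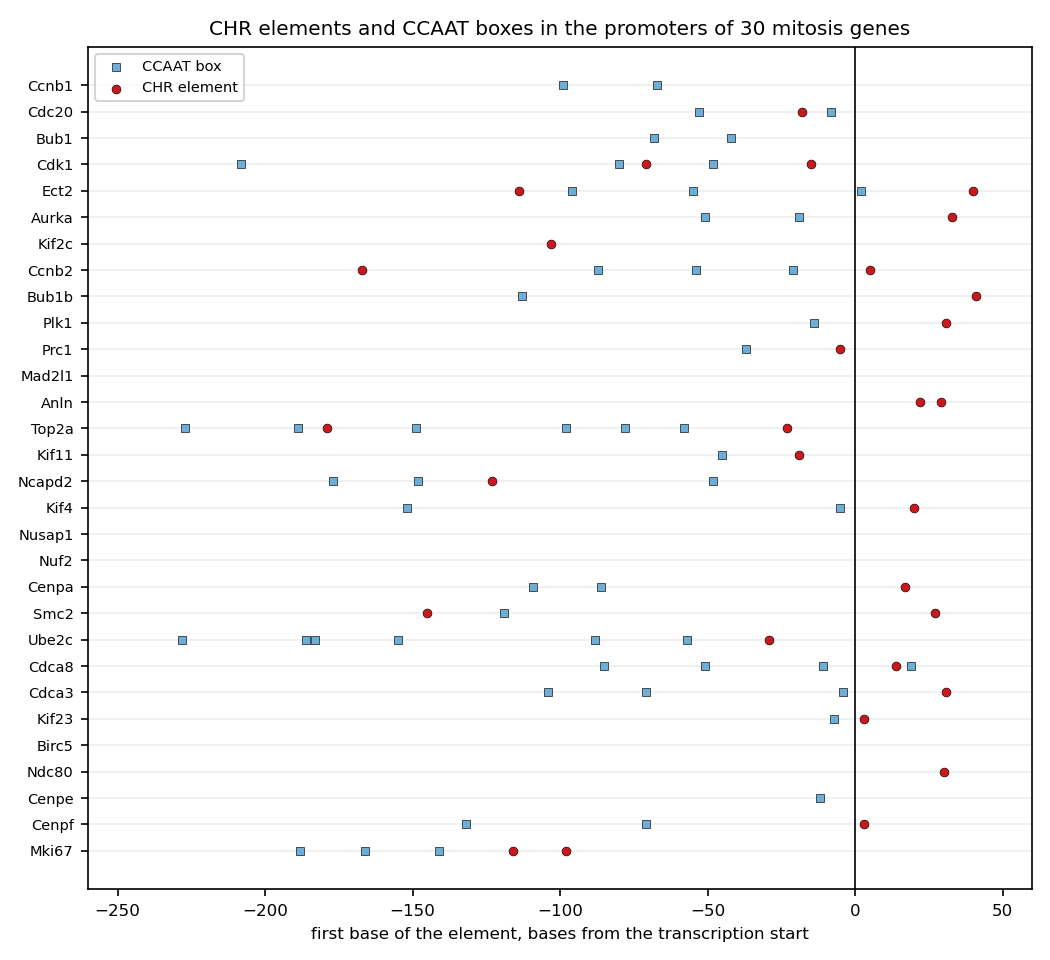
Positions of CHR elements (red circles) and CCAAT boxes (blue squares) on either strand in 30 promoters; the x axis is the distance in bases from the annotated transcription start, and genes are ordered from the largest knockout difference at day 3 (top) to the smallest. CHR elements gather near the start, within 50 bases in 20 of 30 genes, while CCAAT boxes mostly lie farther upstream.

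The 4 libraries held 15255070 to 16215214 reads, recovered from the RPKM values, of which 72.2% to 77.3% fell in listed genes, and every mitosis gene had at least 208 reads in every library. Nfkb1 itself measured 74.8 (wild type) and 56.0 RPKM (knockout) at day 3 and 114 and 64.7 RPKM at day 5. It was lower in the knockout at each day but not absent, and gene-level values do not show which exons the reads came from. Conventional dendritic cell markers (10 genes) were present in every library. They summed to 2581 (wild type) and 1427 RPKM (knockout) at day 3 and to 4174 and 1654 RPKM at day 5. Lower in the knockout were 9 of the 10 at day 3 (3939 of all 11786 genes) and 10 of the 10 at day 5 (5746 of 11786). The cultures also held other cells. Late neutrophil genes (Ltf, Camp, S100a8 and others, 13 genes) summed to 34305 (wild type) and 24145 RPKM (knockout) at day 3 and to 13890 and 2997 RPKM at day 5. Monocyte and macrophage genes summed to 967, 1694, 924 and 1501 RPKM in the same order. The order of libraries by late neutrophil genes is the reverse of the order by summed mitosis genes given next, and the part of other cells in the mitosis values was not tested. In these bulk libraries fewer cells of a type and less RNA per cell cannot be told apart. With 1 library per group there is no test between groups, and the exact (Clopper-Pearson) 95% intervals given below cover counting error of the reads only.

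The mitosis genes were lowest in wild type at day 3 and highest in the knockout at day 5. Together they summed to 837 RPKM in wild type at day 3, 1080 RPKM in the knockout at day 3, 1099 RPKM in wild type at day 5 and 1526 RPKM in the knockout at day 5, or 0.27%, 0.32%, 0.34% and 0.48% of all RPKM. The knockout at day 5 was the highest of the 4 libraries for 36 of 36 genes, against 36.4% of all genes, and wild type at day 3 was the lowest for 33 of 36, against 49.4%, and both held for the same 33 genes (28.3%). The exceptions to the latter were Mki67, Cenpe and Cenpf. The middle libraries did not separate: between the knockout at day 3 and wild type at day 5, 17 genes were higher in the knockout and 19 lower. The median difference was -0.01, near the -0.004 of all genes.

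**Figure D2:**
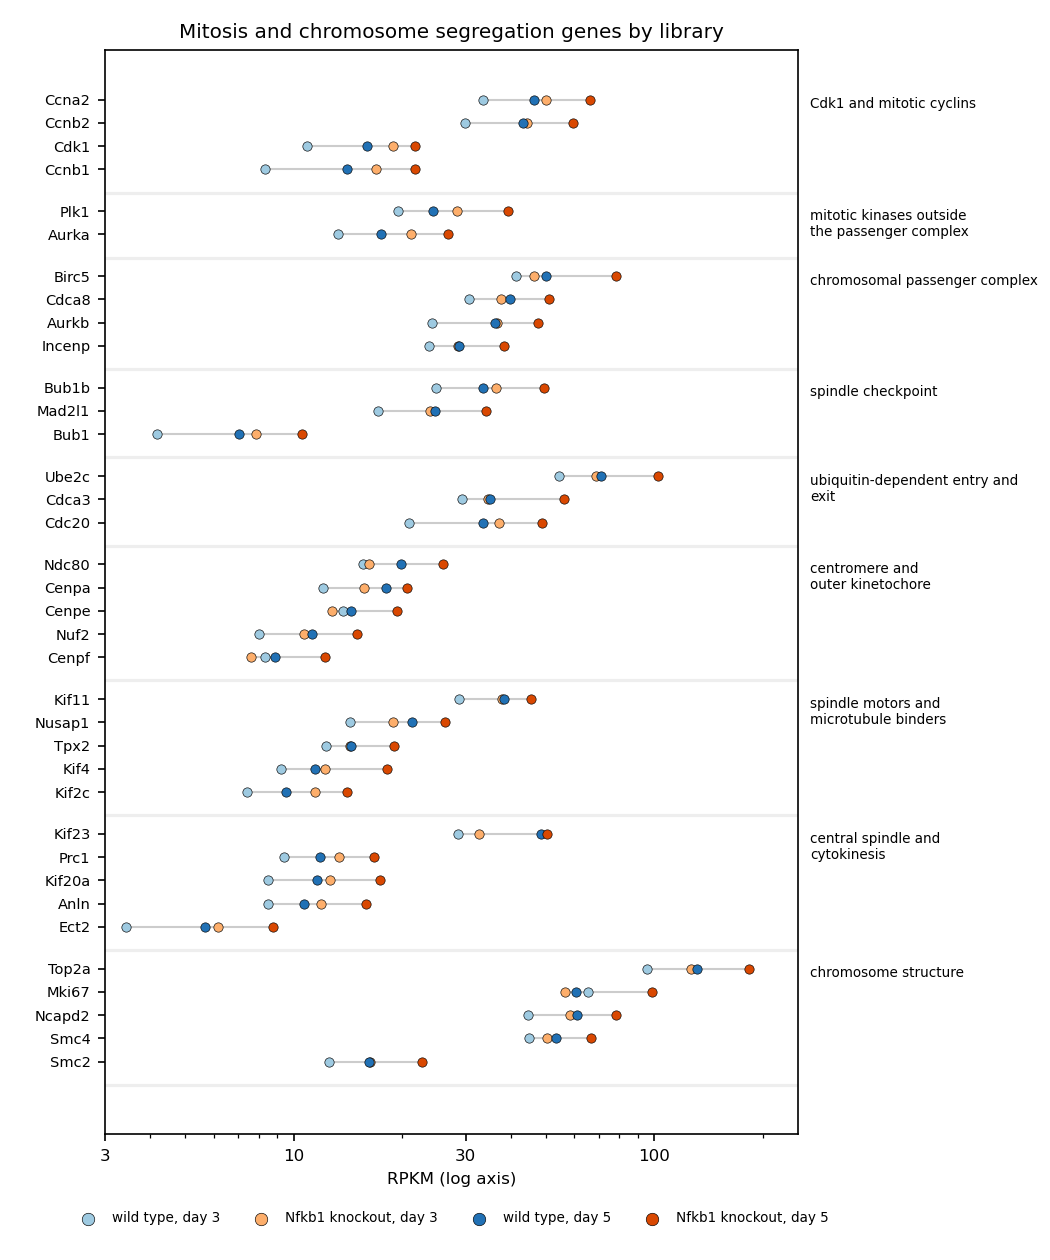
RPKM (log axis) of each of the 36 genes in the 4 libraries, 1 point per library, with genes grouped by role and ordered by mean level within a role. The dark orange points (knockout, day 5) lie farthest right for every gene and the light blue points (wild type, day 3) farthest left for 33 of 36.

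Differences are given on the log2(RPKM + 1) scale, on which 0.5 is about 1.41-fold and 1 is 2-fold in RPKM + 1. At day 3 the difference between knockout and wild type was above 0 for 33 of 36 genes (background 66.6% of all genes), with a median of 0.38 against 0.13 for all genes and a range from -0.20 for Mki67 to 0.94 for Ccnb1. It was at least 0.5 for 13 genes (background 10.8%), and the interval of the ratio lay above 1 for 32 genes (41.4%) and below 1 for 3 (14.0%). At day 5 it was above 0 for 36 of 36 genes (51.2%), with a median of 0.47 against 0.01 for all genes and a range from 0.05 for Kif23 to 0.70 for Mki67. It was at least 0.5 for 16 genes (8.54%), and the interval lay above 1 for 35 (29.2%). Above 0 at both days stood 33 genes (41.2%), and past 0.5 at both 10 genes (3.88% of all genes): Ccna2, Ccnb1, Aurka, Plk1, Bub1, Bub1b, Cdc20, Kif2c, Kif20a and Ect2. None of the 36 reached 1 in either comparison (0.976% of all genes at day 3 and 1.16% at day 5). Without the added 1, the RPKM ratio of Ccnb1 at day 3 was 2.04. With libraries put on their median ratio, the day 3 median was 0.22 against -0.02 for all genes, and 5 genes stood past 0.5 (5.12% of all genes). On that scale 3 genes (Ccnb1, Cdc20 and Ect2) stood past 0.5 at both days. No share of all genes was taken for both days together, while 5.12% passed at day 3 and 7.75% at day 5. Below 0 lay 6 genes at day 3 (Birc5, Ndc80 and Smc4 beside Mki67, Cenpe and Cenpf) and 0 at day 5. Of all genes, 47.7% lay above 0 on that scale at day 3 and 49.1% at day 5.

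Between the days, in wild type 35 of 36 genes were higher at day 5 (69.3% of all genes), with a median of 0.39 against 0.16, 11 were higher by at least 0.5 (13%), and the interval lay above 1 for 33 (44.2%) and below 1 for 1 (15.4%). In the knockout 36 of 36 were higher at day 5 (56.1%), with a median of 0.43 against 0.04, 11 were higher by at least 0.5 (4.96%), and the interval lay above 1 for 36 (28.8%). On the median ratio scale the wild-type median was 0.22 against 0.01 for all genes, and 2 genes stood past 0.5 (6.74%). Cenpe and Cenpf joined Mki67 below 0, while 51.1% of all genes lay above 0. None reached 1 in either genotype (1.8% and 0.594% of all genes). The range ran from -0.11 for Mki67 to 0.75 for Kif23 in wild type and from 0.19 for Cdk1 to 0.79 for Mki67 in the knockout. In both genotypes 35 genes were higher at day 5 (45.6%), and Mad2l1 and Kif23 were the 2 past 0.5 in both (1.9%), so which genes stood highest differed between the genotypes. Across the 36 genes the wild-type and knockout day differences had Pearson's r of -0.43 and Spearman's rho of -0.34, and the genotype differences at day 3 and day 5 had r of 0.20 and rho of 0.31. These are correlations across genes measured in the same libraries, and genes are not independent replicates. Each day comparison shares its libraries with the genotype comparisons, so the comparisons do not count as separate evidence.

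**Figure D3:**
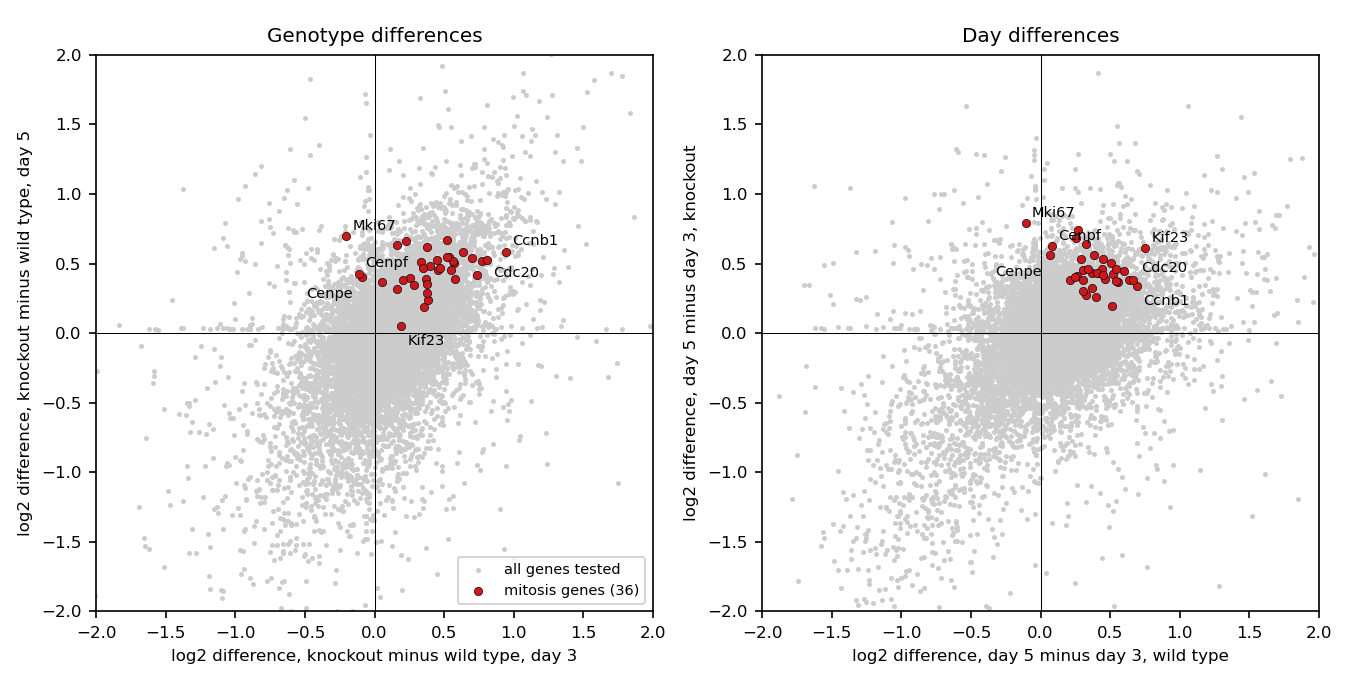
Log2 differences of RPKM + 1 for all 11786 genes tested (grey; those beyond 2 in either direction lie outside the axes) and the 36 mitosis genes (red): on the left knockout minus wild type at day 3 (x) and day 5 (y), on the right day 5 minus day 3 in wild type (x) and the knockout (y). Nearly all mitosis genes lie in the upper right of each panel, and Mki67, Cenpf and Cenpe lie left of 0 on the left panel.

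An additive limma fit of genotype and day over all 11786 genes, with Benjamini-Hochberg adjustment, was run as support. It has 1 residual degree of freedom per gene, which is the change of the genotype difference between days and not replicate error. For the genotype term limma called 0 of 36 genes at an adjusted p of 0.05 (0 of all genes), while 23 of 36 had an unadjusted p under 0.05 with the knockout higher (background 12.4%). The lowest adjusted p from limma was 0.118, for Ccnb1, and the median effect was 0.44 with standard errors from 0.147 to 0.238. For the day term limma again called 0 of 36 (0.136% of all genes higher at day 5 and 1.02% lower), with 24 of 36 at an unadjusted p under 0.05 (background 9.71%) and a lowest adjusted p of 0.103. With an intensity trend, robust estimation, a pseudocount of 5 RPKM or libraries rescaled by their median ratio, limma called 0 of 36 for both terms. Over all 11786 genes these fits called 0 to 19 for genotype and 3 to 286 for day. The unadjusted counts, in either direction, ran from 17 to 28 of 36 for genotype and from 13 to 30 for day. Over all genes they ran from 2297 to 2389 for genotype and from 2066 to 2266 for day.

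Cdk1 and its cyclins had the largest median knockout difference of the 9 roles at day 3, 0.65, with 0.48 at day 5. Ccnb1, cyclin B1, which activates Cdk1 at mitotic entry, measured 8.32 (wild type) and 16.9 RPKM (knockout) at day 3 and 14.1 and 21.6 RPKM at day 5. The wild-type culture at day 3 was thus the low library. The knockout to wild-type ratio was 2.04 at day 3 (interval 1.77 to 2.34) and 1.54 at day 5 (1.37 to 1.72). Ccnb2, the other mitotic B-type cyclin, measured 29.8 and 44.2 RPKM at day 3 and 43.2 and 59.6 RPKM at day 5 in wild type and knockout. Its knockout libraries were each above the wild-type library of the same day, by 1.48-fold (1.35 to 1.63) and 1.38-fold (1.27 to 1.49). Cdk1, the kinase itself, had ratios of 1.73 at day 3 (1.58 to 1.89) and 1.36 at day 5 (1.25 to 1.47). Ccna2, cyclin A2, which acts from S phase to early mitosis, had 1.50 (1.41 to 1.60) and 1.42 (1.35 to 1.50). In all 4 the difference was smaller at day 5 than at day 3 on the deposited scale, with a median change of -0.21 against -0.14 for all genes. On the median ratio scale that median was -0.07, and the change of Ccna2 (0.07) and Ccnb2 (0.04) lay above 0. The 4 included the lowest change of any of the 36 genes, -0.36, for Ccnb1.

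The centrosome and spindle kinases Aurka and Plk1 differed by a similar amount at each day. Aurka, which matures centrosomes, measured 13.3 (wild type) and 21.1 RPKM (knockout) at day 3 and 17.5 and 26.7 RPKM at day 5. Its knockout level at day 3 exceeded the wild-type level at day 5, and its ratios were 1.59 (1.40 to 1.81) and 1.53 (1.37 to 1.71). Plk1, a kinase needed from mitotic entry to cytokinesis, measured 19.5 and 28.4 RPKM at day 3 and 24.4 and 39.3 RPKM at day 5. The Plk1 log2 difference was 0.52 at day 3 and 0.67 at day 5.

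The chromosomal passenger complex, which corrects faulty attachments, had smaller median differences of 0.27 at day 3 and 0.39 at day 5. Aurkb, its kinase, measured 24.3 (wild type) and 36.6 RPKM (knockout) at day 3 and 36.1 and 47.6 RPKM at day 5. The knockout at day 3 and wild type at day 5 were thus nearly level, and the ratio was 1.51 at day 3 (1.37 to 1.66) and 1.32 at day 5 (1.22 to 1.43). Cdca8, or borealin, a scaffold of the complex, measured 30.6 and 37.5 RPKM at day 3 and 39.8 and 50.9 RPKM at day 5. Its ratios, 1.23 and 1.28, were among the smaller ones. Birc5, or survivin, which docks the complex on the centromere, differed more at day 5, unlike its kinase: its log2 difference was 0.16 at day 3 and 0.63 at day 5, and that of Incenp, the subunit that activates Aurkb, 0.25 and 0.40.

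The spindle checkpoint genes stood higher in the knockout by medians of 0.53 and 0.52. Bub1, a checkpoint kinase at the kinetochore, measured 4.19 (wild type) and 7.86 RPKM (knockout) at day 3 and 7.05 and 10.6 RPKM at day 5. It was low in wild type at day 3 against the other libraries, and its ratio was 1.88 at day 3 (1.62 to 2.18) and 1.50 at day 5 (1.33 to 1.68). Mad2l1, which encodes Mad2, the inhibitor of Cdc20, measured 17.1 and 23.9 RPKM at day 3 and 24.7 and 34.2 RPKM at day 5. Its log2 difference was nearly the same at the days, 0.46 and 0.45, and so was its day difference in the genotypes, 0.50 and 0.50. Bub1b, or BubR1, which binds Cdc20 with Mad2, differed by 0.53 and 0.55.

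Among the genes of ubiquitin-dependent mitotic entry and exit, Cdc20 had the second largest difference of all 36 genes at day 3. Cdc20, the activator of the anaphase-promoting complex, measured 20.8 (wild type) and 37.2 RPKM (knockout) at day 3 and 33.6 and 48.7 RPKM at day 5. Its ratio was 1.79 at day 3 (1.61 to 1.98) and 1.45 at day 5 (1.33 to 1.58). Ube2c, the E2 enzyme of that complex, was among the most abundant, at 54.4 and 68.7 RPKM at day 3 and 71.2 and 102 RPKM at day 5. Unlike Cdc20 it had its larger ratio at day 5, 1.43 (1.32 to 1.55), against 1.26 (1.15 to 1.39) at day 3. Cdca3, a trigger of mitotic entry, likewise had log2 differences of 0.23 at day 3 and 0.66 at day 5. Cdc20 and Ube2c are among the genes whose exons overlap another gene on the opposite strand (Elovl1 and Tnnc2).

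The centromere and outer kinetochore genes had the smallest median at day 3, 0.06, and 0.39 at day 5. Cenpe, a kinesin that moves chromosomes to the spindle equator, measured 13.7 (wild type) and 12.8 RPKM (knockout) at day 3 and 14.4 and 19.4 RPKM at day 5. Only the knockout at day 5 was high, and the ratio was 0.933 at day 3 (0.870 to 0.9996) and 1.34 at day 5 (1.26 to 1.43). Cenpf, a large protein of the outer kinetochore chosen here after its values were seen, showed the same order, at 8.31 and 7.60 RPKM at day 3 and 8.86 and 12.2 RPKM at day 5. Its ratio was 0.915 at day 3 (0.849 to 0.986) and 1.38 at day 5 (1.29 to 1.48). Ndc80, a microtubule-binding subunit of the kinetochore complex of that name, had ratios of 1.04 (0.924 to 1.17) and 1.31 (1.18 to 1.44). The day 3 difference of Ndc80, 0.06, was within counting error and was -0.10 on the median ratio scale. Nuf2, its partner in that complex, measured 8.01 and 10.7 RPKM at day 3 and 11.3 and 15.0 RPKM at day 5, with a ratio of 1.33 at each day. Cenpa, the centromeric histone H3 variant, differed by 0.36 and 0.19.

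The spindle motors and microtubule binders differed by medians of 0.37 and 0.38. Kif2c, a kinesin that depolymerises microtubules at centromeres, measured 7.41 (wild type) and 11.5 RPKM (knockout) at day 3 and 9.54 and 14.1 RPKM at day 5. It had the largest ratio of its role at day 3, 1.55 (1.34 to 1.78), with 1.47 (1.30 to 1.67) at day 5. Tpx2, which activates Aurka on the spindle, measured 12.3 and 14.3 RPKM at day 3 and 14.4 and 19.0 RPKM at day 5. Knockout at day 3 and wild type at day 5 were level for it. Kif11, the motor that separates the spindle poles, differed by 0.38 and 0.24, Kif4, a chromosome-bound kinesin, by 0.38 and 0.62, and Nusap1, which bundles spindle microtubules, by 0.37 and 0.29.

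In the central spindle and cytokinesis group Ect2 and Kif23 stood at opposite ends. Ect2, the exchange factor that activates RhoA for furrowing, was the least abundant of the 36, at 3.42 (wild type) and 6.17 RPKM (knockout) at day 3 and 5.70 and 8.75 RPKM at day 5. Its ratio was 1.80 at day 3 (1.52 to 2.14) and 1.54 at day 5 (1.34 to 1.76). Kif23, the kinesin of the centralspindlin complex that recruits Ect2, measured 28.5 and 32.7 RPKM at day 3 and 48.6 and 50.4 RPKM at day 5. Kif23 thus separated by day more than by genotype: wild type at day 5 was 1.71-fold (1.60 to 1.82) above wild type at day 3, while knockout to wild type was 1.15-fold (1.07 to 1.23) at day 3 and 1.04-fold (0.982 to 1.09) at day 5. Kif20a, Prc1 and Anln, which act at the central spindle and furrow, had ratios of 1.40 to 1.50 at both days.

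Chromosome structure genes held the most abundant transcripts of the 36. Top2a, the topoisomerase that untangles sister chromatids, had the highest mean, at 95.6 (wild type) and 126 RPKM (knockout) at day 3 and 131 and 183 RPKM at day 5. Its ratio was 1.32 at day 3 (1.28 to 1.36) and 1.40 at day 5 (1.37 to 1.44). Smc4, the condensin core subunit, measured 45.0 and 50.4 RPKM at day 3 and 53.5 and 66.8 RPKM at day 5. Its log2 differences of 0.16 and 0.31 compare with 0.35 and 0.47 for its partner Smc2 and 0.38 and 0.35 for the condensin subunit Ncapd2.

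Mki67, which encodes the Ki-67 coat of mitotic chromosomes and the common marker of cycling cells, had the opposite genotype difference at the days. It measured 65.3 (wild type) and 56.6 RPKM (knockout) at day 3 and 60.5 and 98.7 RPKM at day 5. The knockout at day 3 was the low library and the knockout at day 5 the high one, so the ratio was 0.867 at day 3 (0.843 to 0.892) and 1.63 at day 5 (1.59 to 1.67). Between the days it was 0.928 (0.902 to 0.954) in wild type and 1.74 (1.70 to 1.79) in the knockout. The change of the genotype difference from day 3 to day 5 was 0.90 for Mki67, 0.54 for Cenpf and 0.50 for Cenpe, against a median of 0.01 over the 36 genes and -0.14 over all genes. A change above 0 was found for 19 of 36 genes (33.3% of all genes), and one of at least 0.5 for Mki67 and Cenpf (4.13% of all genes). On the median ratio scale the median change was 0.15 against -0.01 for all genes, with 29 of 36 above 0 (49.2% of all genes) and 5 of at least 0.5 (6.91%). With length bin medians subtracted the median change was 0.17, with 30 of 36 above 0 (49.99% of all genes).

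Mki67, Cenpf and Cenpe also have the longest transcripts of the 36, at 10075, 11122 and 7813 bases. Over all genes the median knockout difference at day 3 was -0.07 for the 484 genes longer than 8000 bases and 0.07 for the 786 longer than 6000 and up to 8000 bases, against 0.11 to 0.17 in the shorter bins. At day 5 the bins lay between -0.03 and 0.03. With the median of the length bin subtracted, the day 3 difference was -0.13 for Mki67, -0.04 for Cenpf, -0.16 for Cenpe and -0.10 for Ndc80, and the change to day 5 was 0.81, 0.45, 0.58 and 0.47. The 6 other mitosis genes longer than 7500 bases had day 3 differences from -0.25 (Nipbl) to 0.43 (Anapc1), and 1 of the 6 was below 0. The part of transcript length in the Mki67, Cenpf and Cenpe values was not tested further.

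**Figure D4:**
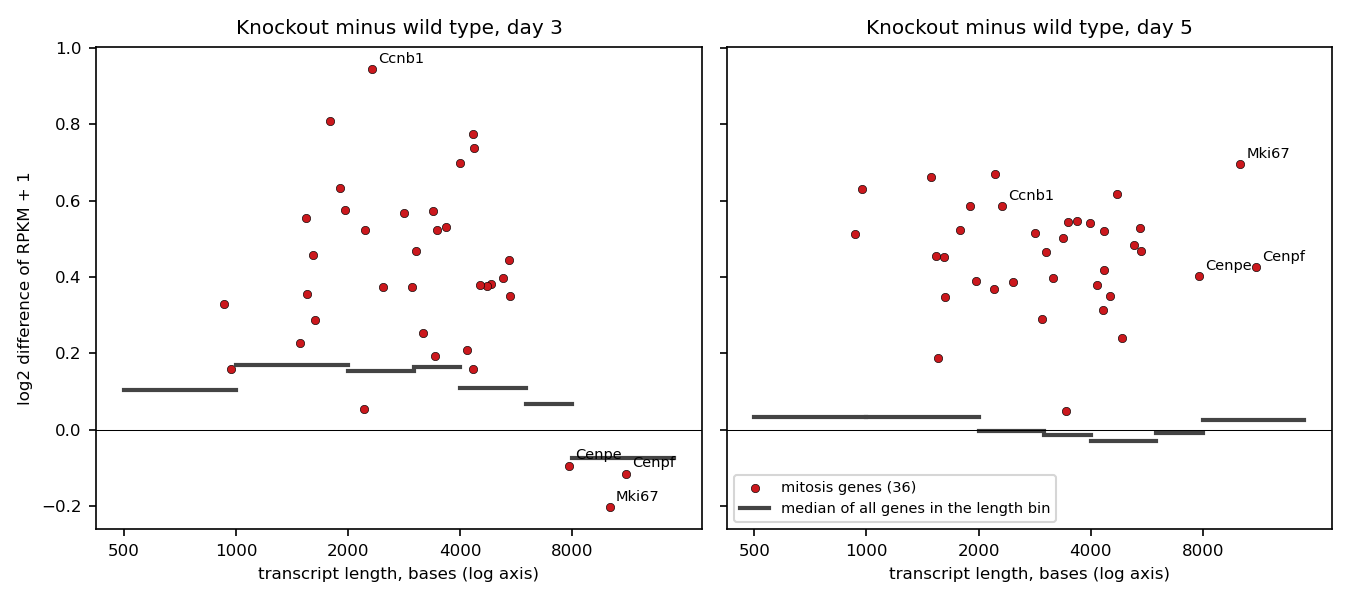
Knockout minus wild type (log2 difference of RPKM + 1) against transcript length in bases (log axis) at day 3 (left) and day 5 (right) for the 36 mitosis genes (red points), with the median of all genes in each length bin as grey bars. At day 3 the 3 longest mitosis genes and the longest bin lie below 0, and at day 5 all 36 genes lie above 0.

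The medians of the group stayed above 0 on a scale set without the genes of the marker lists, which include dendritic cell markers. Such a scale changes only the factor of each library and does not remove the RNA of any cell type. With libraries rescaled to the same sum of RPKM over genes outside the 12 marker lists, the median of the mitosis genes was 0.24 at day 3 and 0.44 at day 5 for knockout against wild type, and 0.26 in wild type and 0.42 in the knockout for day 5 against day 3. The numbers of genes above 0 were 32, 36, 33 and 36 of 36, against 49.8%, 48.2%, 55.9% and 55.0% of all genes on that scale. The late neutrophil share was 10.9%, 7.21%, 4.31% and 0.95% of summed RPKM in wild type and knockout at day 3 and then at day 5. Its part in the mitosis values was not tested.

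Beyond the 36 genes, 118 other mitosis genes in 6 lists had smaller median differences, 0.28 at day 3 and 0.24 at day 5, with 107 and 95 above 0 (90.7% and 80.5%). Of these, 16 and 10 were higher by at least 0.5, and those shares, 13.6% and 8.47%, were near the 10.8% and 8.54% of all genes. The other centromere, kinetochore and checkpoint genes (34) had medians of 0.28 and 0.19, led by Cenpp (0.90 and 0.53), Spc24 (0.77 and 0.40) and Cenpw (0.73 and 0.13), subunits of the kinetochore. The mitotic entry kinases, phosphatases and transcription factors (24) had 0.34 and 0.23, with Melk, a cell cycle kinase, at 0.71 and 0.28. The anaphase-promoting complex itself (17) had 0.28 and 0.14, with Cdc16 and Cdc23, core subunits, at 0.57 and 0.20 and at 0.53 and 0.41. Cohesin, securin and separase genes (14) had 0.22 and 0.25, with Espl1, separase, at 0.47 and 0.54. The other condensin genes (5) had 0.27 and 0.25, with Ncapg at 0.57 and 0.35. The other motors and spindle proteins (24) had 0.21 and 0.27, with Hmmr, a spindle protein, at 0.34 and 0.73, and Cep55, which acts in abscission, at 0.49 and -0.66. The 45 DNA replication genes differed by about as much as the 36 mitosis genes, with medians of 0.50 and 0.43 and 44 and 42 of 45 above 0, among them Rfc4 (0.95 and 0.41), Pole2 (0.85 and 0.11) and Orc1 (0.51 and 0.87). The 10 reference genes had a median of 0.19 at each day.

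**Figure D5:**
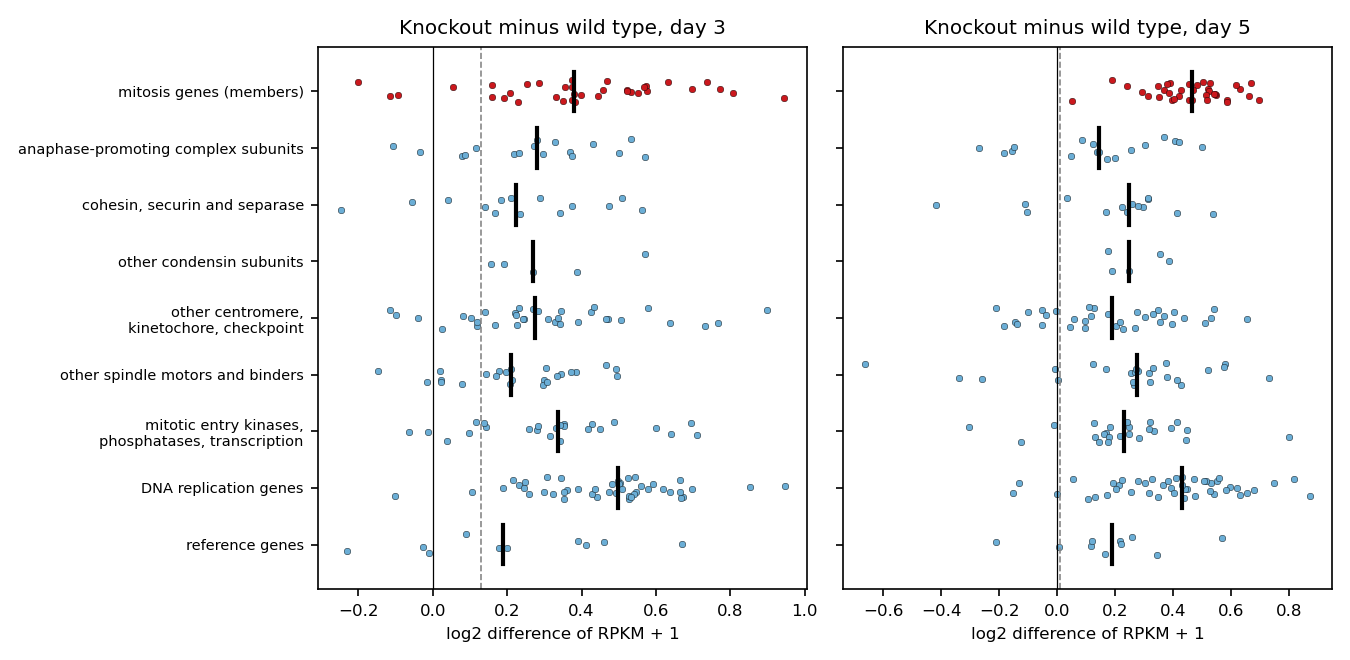
Log2 difference of RPKM + 1 between knockout and wild type for each gene (points) of the 36 mitosis genes (red) and of the pathway lists (blue) at day 3 (left) and day 5 (right), with the median of each list as a black bar and the median of all genes as a dashed line. The mitosis genes and DNA replication genes lie farthest right of the dashed line at both days.

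Counting of overlapping genes could touch some of these levels, since whether strand was used is not stated. In GENCODE M21, 11 of the 36 genes have exons that overlap another gene and 9 do so with a gene of the table: Ccna2 with Exosc9, Cdc20 with Elovl1, Cdca8 with 9930104L06Rik, Kif20a with Cdc23, Kif4 with Pdzd11, Nusap1 with Oip5, Prc1 with Rccd1 and Ube2c with Tnnc2 on the opposite strand, and Ncapd2 with Scarna10 on the same strand.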

How the data were processed

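The authors deposited RPKM values, named as such per the file headers, for 26026 genes, with 1 column for each library. HISAT2, SAMtools and the mm9 build were used, per the submitters' processing notes, while the counting tool, the annotation release and any use of strand are not stated. RNA was made into libraries with a Kapa mRNA kit, per the labels' protocols. Column names give genotype and day, which matched each to 1 library. Whole reads, library totals and gene lengths were recovered from the steps between values (tolerance 0.003 reads); no value was 0, and 7985 genes stood at the value of 1 read in all libraries. The intervals take reads as independent molecules, which reads without molecular identifiers are not.

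Differences are of log2(RPKM + 1) over 11786 genes (mean level of at least 1 RPKM). Python 3.11.15 (pandas 2.3.3, scipy 1.17.1) and R 4.3.3 with limma 3.58.1 were used, and the procedures were tested on simulated data. The libraries are labelled as separate samples, 1 per group, so p-values from limma do not measure replicate error. Members with values in each library were, per role, those with the largest and smallest sum of the genotype differences, plus the 3 with the highest mean (19 in all), and in each pathway list up to 3 genes with the largest absolute genotype difference. Values given for other members were chosen after they were seen. The members and lists were chosen with earlier results of these data known.

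Other marker lists summed, in wild type and knockout at day 3 and then at day 5, to 712, 960, 401 and 432 RPKM (neutrophil precursor), 320, 329, 454 and 297 (plasmacytoid dendritic cell), 58.2, 82.8, 105 and 96.4 (stem and progenitor), 358, 314, 197 and 112 (B cell), 20.3, 6.50, 12.4 and 3.76 (T and NK cell), 284, 99.9, 61.8 and 55.3 (erythroid), 152, 129, 230 and 38.4 (mast cell and basophil), 324, 374, 784 and 360 (megakaryocyte) and 1.67, 1.89, 8.89 and 6.11 RPKM (stromal). A sum can hide genes that go the other way. At day 5, 5 of the 7 neutrophil precursor genes were lower in the knockout (median difference -0.59), while Prtn3 was higher by 0.98. Of the 9 monocyte and macrophage genes 7 were higher in the knockout and 2 lower at each day, among the latter Adgre1 (-0.48 and -1.07). Stfa2 and Cd3g in the knockout at day 5, Car1 in 3 libraries and Mcpt4 in all 4 stood at the value of 1 read. Conventional dendritic cell markers summed to 2581, 1427, 4174 and 1654 RPKM. The part of these cells in the mitosis values was not tested. Alternatives were pseudocounts of 0.1 and 5 RPKM, no filter or a mean of at least 5 RPKM, and rescaling of libraries by their median ratio or to the same sum of RPKM. Rescaling to the same sum outside the marker lists and subtraction of the length bin median were added after the data were seen.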

Additional observations from a re-analysis of the deposited data

Results flagged for a closer look

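Among the 36 genes, the difference between knockout and wild type had opposite signs at day 3 and day 5 for 3. It went from below to above 0, by 0.90 for Mki67, 0.54 for Cenpf and 0.50 for Cenpe. Day 5 against day 3 had opposite signs in wild type and knockout for 1 of the 36, Mki67, which is the same change of 0.90. Among the genes named from the pathway lists, Cep55, an abscission gene, had opposite signs in both respects (-1.16), and the kinetochore gene Cenpw (-0.61) and the anaphase-promoting complex gene Cdc16 (-0.37) had opposite day differences in the genotypes. Opposite signs were common outside the 36 genes, with no regard to size: the genotype difference switched for 22 of the 118 other mitosis genes and 35.5% of all genes tested, and the day difference for 24 of the 118 and 34.1% of all genes. With 1 library per group none of these differences between days or genotypes was tested.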

How the results depend on the processing

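Medians over the 36 genes and counts are given in the order knockout against wild type at day 3 and day 5, day 5 against day 3 in wild type and knockout, and the change of the genotype difference. All medians of the 4 comparisons between libraries stayed above 0 under every alternative run. With a pseudocount of 0.1 RPKM the day 3 and day 5 medians were 0.40 and 0.49, and 1 gene reached 1 at day 3. With 5 RPKM the first 4 medians were 0.33, 0.38, 0.33 and 0.38. Then 6, 4, 3, 7 and 1 genes reached 0.5, against 4.89%, 4.23%, 4.99%, 1.78% and 1.60% of all genes. Rescaling by the median ratio, which moved the median of all genes at day 3 from 0.13 to -0.02, gave medians of 0.22, 0.44, 0.22, 0.41 and 0.15. Past 0.5 stood 5 genes at day 3 (5.12% of all genes), 2 in wild type between days (6.74%) and 5 for the change (6.91%). For the change 29 of the 36 were above 0 (49.2% of all genes) and 1 reached 1. Relative to all genes the median of the 36 was then 0.24 at day 3. Rescaling to the same sum gave 0.30, 0.50, 0.36, 0.51 and 0.13. Past 0.5 stood 6 genes at day 3 (7.34% of all genes), 21 in the knockout between days (8.12%) and 5 for the change (6.36%), 1 of them past 1. The scale outside marker lists gave 0.24, 0.44, 0.26 (wild type) and 0.13 (change). Past 0.5 stood 5, 10, 4 and 5 genes, against 5.52%, 7.53%, 7.59% and 6.35% of all genes, and 1 was past 1 for the change. Subtracting length bin medians gave 0.27 at day 3, 0.23 and 0.41 between days and 0.17 for the change. Past 0.5 then stood 5 genes at day 3 (5.35% of all genes), 2 in wild type between days (6.15%) and 4 for the change (6.86%). On that scale 30 of the 36 changes lay above 0, against 49.99% of all genes. TATAAA was in 0 promoters from 150 bases before the start (10.4% of all genes). For single genes, Ndc80 at day 3 turned to -0.10, -0.028 and -0.087 under the 3 rescalings in that order and -0.10 by length bin, and Birc5 and Smc4 to -0.0052 and -0.0061 (median ratio). Between days in wild type, Cenpf turned to -0.071 (median ratio) and -0.035 (outside marker lists), and Cenpe to -0.095, -0.058 and, by length bin, -0.036. The change of Kif23 turned to 0.00098 (median ratio) and 0.019 (length bin), that of Ccna2 to 0.073, 0.049, 0.047 and 0.090 and that of Ccnb2 to 0.044, 0.020, 0.019 and 0.056 under the 3 rescalings and by length bin. The cause was not tested. The scale outside marker lists and the length bins were chosen after seeing the data. Of the remaining values, 133 that answer a comparison stayed close to the first value, and of those for single genes 836 moved by less than 0.1 and 259 by more without a change of sign. Many of these could not move, so their number does not measure stability. Changing the filter left every value of the 36 genes as it was, since their lowest mean was 6.01 RPKM (Ect2). A pseudocount cannot change the sign of a difference between 2 libraries. No paired analysis was possible because no replicate numbers pair the libraries, though the additive limma fit of genotype and day does compare the genotypes within each day. With 1 library per group, leaving out a library was not possible. Read totals were alike between libraries, and no replicate error could be measured in any comparison.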
